A study of Mus musculus with 21 samples.

Results

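Glycolysis and hypoxia response genes were examined in 3 macrophage populations of the mouse kidney. The set held 36 genes of the 34236 gene symbols counted, chosen by name: 4 transporters of glucose and lactate, 3 hexokinases, 13 further genes of glycolysis and its control, the oxygen-sensing factors Hif1a and Epas1 with 2 of their hydroxylases, and 12 other genes induced in low oxygen. Every member had 1 line in the count table, and levels are given as CPM (counts per 1000000 counts of a library) after scaling by the trimmed mean of M values (TMM), a correction for differences in RNA composition. RNA was sequenced from 21 libraries of cells sorted for F4/80 and CD64, both macrophage surface proteins, from male C57BL/6J mice labelled as 24 weeks old. KRM, the kidney-resident macrophages, are intermediate for CD11b and CD11c, and CD11chiMϕ and CD11cloMϕ are high for CD11b and named by their level of CD11c. The libraries were 3 CD11chiMϕ Sham, 4 CD11chiMϕ RAS, 3 CD11cloMϕ Sham, 4 CD11cloMϕ RAS, 4 KRM Sham and 3 KRM RAS. RAS kidneys were narrowed at the right renal artery with a cuff, as a model of renal artery stenosis, and in Sham mice the artery was exposed without a cuff. The labels name no genetic change in any group and no treatment in culture, and give a flow sort time of 5 hours. The study gives its sample numbers as mice, but neither it nor the labels tie a library to a mouse, so p-values measure the spread between these libraries. For CD11chiMϕ RAS and CD11cloMϕ RAS, and in 1 of its plots for CD11chiMϕ Sham, the study counts fewer samples than the labels list, without saying which, and all labelled libraries were used here.

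Glycolysis splits glucose into pyruvate in the cytosol and yields ATP without oxygen, and lactate dehydrogenase and lactate export let it continue. When oxygen falls, prolyl hydroxylases of the Egln family stop marking HIF-1α (encoded by Hif1a) and HIF-2α (encoded by Epas1) for destruction, and these factors switch on glucose transporters, glycolytic enzymes and a wider set of targets through DNA elements with an A or G before CGTG. In macrophages the same program also runs in normal oxygen during inflammatory activation. HIF proteins are controlled largely by their stability, so the mRNA of Hif1a or Epas1 does not measure their activity.

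In brief, KRM of Sham kidneys held less mRNA of most glycolytic genes than CD11cloMϕ, with the fructose-2,6-bisphosphate enzymes Pfkfb3 and Pfkfb4 and the carbonic anhydrase Car9 the other way round. In RAS kidneys 5 members were higher, 1 of them (Egln3) tested only because of its RAS counts, and 1 lower in KRM, where 9.70% of all genes were called, 7.77% higher and 1.94% lower, and 2 of the 3 KRM RAS libraries differed from Sham far more than the other one. No member was called without either of those 2 libraries, without KRM Sham replicate 1, 2 or 4, or with the replicate number as a block. No member passed edgeR's test between RAS and Sham in CD11chiMϕ or CD11cloMϕ, and DESeq2, another count test, called 1 in CD11chiMϕ, Bhlhe40.

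Library totals ran from 6891142 to 18592381 counts, with 14607 to 17703 genes counted. Macrophage genes such as Csf1r, the receptor for the growth factor CSF1, and Emr1, which encodes F4/80, were counted in every library, and Itgax, which encodes CD11c, was at 116 to 925 CPM in CD11chiMϕ, 8.44 to 58.5 in CD11cloMϕ and 144 to 431 in KRM. Several libraries stood apart. The 3 Sham libraries numbered 3 held the most proximal tubule RNA of their groups, with summed levels of 14 markers of 24441 CPM in CD11chiMϕ (556 and 708 in the other 2), 7946 in CD11cloMϕ (297 and 229) and 4129.9 in KRM (1011 to 1099.9). The same 3 libraries were also the highest of their groups in 7 distal nephron and collecting duct markers, at 1178, 514 and 159.6 CPM, against at most 10.3 in any other Sham library. KRM RAS replicates 2 and 3 held 3824 and 2864 CPM of these distal markers, against 95.8 in replicate 1 and 4.29 to 159.6 in KRM Sham, and their 9 macrophage markers summed to 9014 and 10536 CPM against 15577 in replicate 1 and 18100.4 to 25398 in KRM Sham. CD11chiMϕ RAS replicates 3 and 4 were high in 6 dendritic cell markers (4776 and 5079 CPM, against 342 to 1933 in the other CD11chiMϕ libraries). These 2 were also the most alike of all pairs within a group, with a chi-square over genes of 5.13 per degree of freedom, where counting noise alone gives about 1, against 94.3 to 128 for the other CD11chiMϕ RAS pairs and 7.23 to 365 within the other groups. They differed by more than counting noise and were kept as 2 libraries, and whether they came from separate mice was not tested. Results that rest on these libraries are given with and without them, and in bulk RNA fewer cells of a type and less RNA per cell cannot be told apart.

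**Figure D1:**
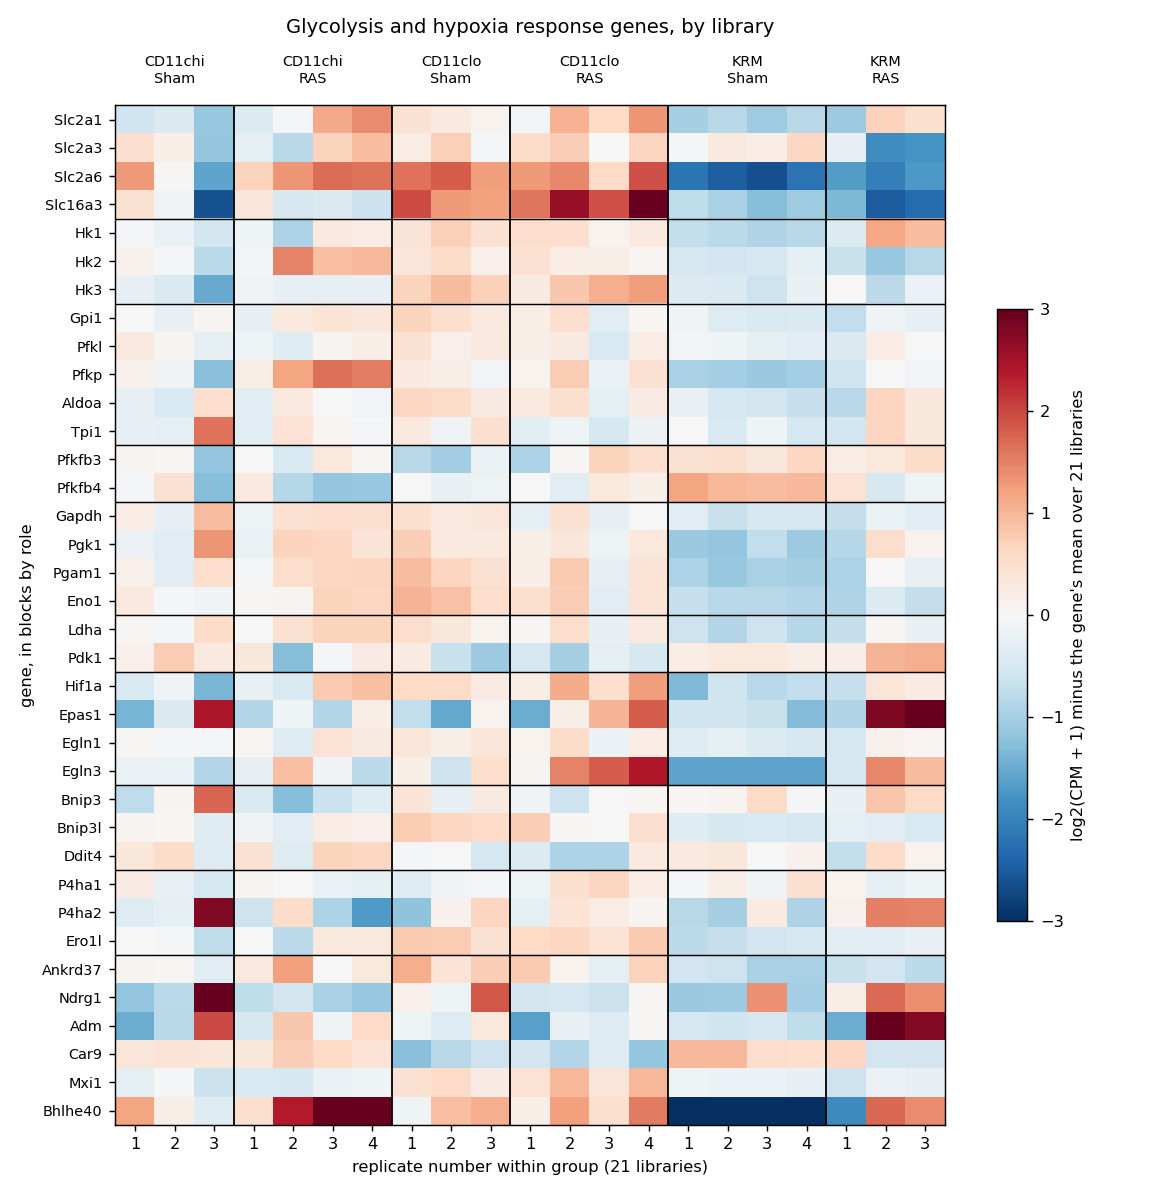
Heat map of the 36 genes (rows, in blocks by role) in the 21 libraries (columns, by group and replicate number), coloured by log2(CPM + 1) minus the gene's mean over all libraries, with colours ending at -3 and 3. The 4 KRM Sham columns are blue for most transport and glycolysis genes and red for Pfkfb4 and Car9, CD11chiMϕ Sham replicate 3 differs from its group in most rows, and KRM RAS replicate 1 looks more like KRM Sham than replicates 2 and 3 do.

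Levels of different genes were compared per length, as CPM per kilobase of annotated exons, a scale that treats all exons of a gene as used. On that scale the mean level in KRM Sham was highest for the enolase gene Eno1 at 91.5, for Ldha, which encodes a lactate dehydrogenase subunit, at 90.01 and for the aldolase gene Aldoa at 88.2. The bifunctional enzyme Pfkfb4 came seventh of the 36 genes in KRM Sham at 44.1, against 19.8 in CD11chiMϕ Sham and 19.9 in CD11cloMϕ Sham. Hif1a stood at 13.4 CPM per kilobase in KRM Sham and Epas1 at 0.267. The lowest members in KRM Sham were Epas1, P4ha2 at 0.204 and Egln3, which had no count in any of the 4 libraries.

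The promoters of the set were inspected for the core letters of the hypoxia response element. RefSeq promoter windows on GRCm38.p6 were given for 31 of the 36 members (Ero1l under its newer symbol Ero1a), and Slc2a3, Epas1, Bnip3l, Ndrg1 and Bhlhe40 had none. In the 250 bases before the transcription start, ACGTG or GCGTG was found on either strand in 26 of 31 member windows (83.9%) and in 38.6% of all 32851 windows of this length. ACGTG alone was in 58.1% of member windows and 16.6% of all windows, and it overlaps the palindrome CACGTG of other factors, which was in 9.68% and 6.02%. Median GC content was 64.0% in the member windows and 52.4% in all windows, and its part in these shares was not tested. The windows of 6 members are shown with matches in capitals, CACGT and CACGC being ACGTG and GCGTG read on the other strand. The first 4 belong to genes that were lower in KRM than in CD11cloMϕ, the glucose transporter Slc2a6 (chr2:27027999-27028248, minus strand), the lactate exporter Slc16a3 (chr11:120948817-120949066, plus strand), phosphoglycerate kinase Pgk1 (chrX:106186850-106187099, plus strand) and Ldha (chr7:46845554-46845803, plus strand). The last 2 belong to genes that were higher in KRM, Pfkfb4 (chr9:108991652-108991901, plus strand) and Car9 (chr4:43506776-43507025, plus strand).
Slc2a6: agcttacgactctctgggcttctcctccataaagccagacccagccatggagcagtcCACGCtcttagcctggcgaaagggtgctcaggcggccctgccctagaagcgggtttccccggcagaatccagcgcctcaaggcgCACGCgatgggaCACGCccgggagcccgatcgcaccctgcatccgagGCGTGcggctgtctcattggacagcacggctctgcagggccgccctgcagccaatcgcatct
Slc16a3: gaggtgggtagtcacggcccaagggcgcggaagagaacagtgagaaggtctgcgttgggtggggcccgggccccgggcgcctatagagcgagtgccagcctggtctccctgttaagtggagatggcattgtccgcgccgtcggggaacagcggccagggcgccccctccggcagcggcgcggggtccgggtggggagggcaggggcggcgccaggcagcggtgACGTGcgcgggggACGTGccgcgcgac
Pgk1: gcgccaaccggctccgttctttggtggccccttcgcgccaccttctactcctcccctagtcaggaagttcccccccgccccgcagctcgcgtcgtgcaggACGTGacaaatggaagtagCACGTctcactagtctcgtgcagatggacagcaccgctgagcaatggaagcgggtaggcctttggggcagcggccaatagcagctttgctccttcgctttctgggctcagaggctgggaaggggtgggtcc
Ldha: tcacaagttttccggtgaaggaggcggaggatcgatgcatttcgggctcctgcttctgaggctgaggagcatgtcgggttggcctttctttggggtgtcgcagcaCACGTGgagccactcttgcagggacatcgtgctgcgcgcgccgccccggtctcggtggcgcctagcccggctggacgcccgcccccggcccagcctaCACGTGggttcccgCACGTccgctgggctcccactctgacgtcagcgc
Pfkfb4: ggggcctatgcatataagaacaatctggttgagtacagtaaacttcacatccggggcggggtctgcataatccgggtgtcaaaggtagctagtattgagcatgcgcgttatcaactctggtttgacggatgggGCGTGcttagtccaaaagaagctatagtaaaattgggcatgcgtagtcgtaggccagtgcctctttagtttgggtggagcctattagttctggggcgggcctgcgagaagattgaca
Car9: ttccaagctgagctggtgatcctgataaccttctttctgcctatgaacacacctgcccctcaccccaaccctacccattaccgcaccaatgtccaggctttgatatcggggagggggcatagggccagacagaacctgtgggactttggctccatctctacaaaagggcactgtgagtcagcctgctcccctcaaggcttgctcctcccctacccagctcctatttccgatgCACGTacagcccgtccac
The windows held 4 matches for Slc2a6, 2 for Slc16a3, 2 for Pgk1, 5 for Ldha, 1 for Pfkfb4 and 1 for Car9. Genes on both sides of the KRM to CD11cloMϕ difference thus carried the letters, and a match is no evidence that a factor binds there.

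The first question was how resident macrophages differ from the CD11b-high populations in kidneys without stenosis. Between KRM and CD11cloMϕ of Sham kidneys 26 of the 35 members tested passed an adjusted p of 0.05, 3 higher and 23 lower in KRM, where 41.9% of all 12365 genes tested were called, 19.5% higher and 22.4% lower. Tests here and below are edgeR's quasi-likelihood F test with Benjamini-Hochberg adjustment over all genes tested. The median log2 fold change of the members was -0.88, against -0.04 over all genes tested. Egln3 was below the count filter. The count stayed between 25 and 27 when any 1 library was left out (32.8 to 47.1% of all genes) and was 26 without the Sham libraries numbered 3 (46.8% of all genes). CD11cloMϕ Sham libraries held 4073 to 13257 CPM of 7 monocyte markers against 561 to 853 in KRM Sham, and 888 to 1922 CPM of 6 neutrophil markers against 90.2 to 117. All 7 monocyte markers and the 4 neutrophil markers tested were called lower in KRM, and their part in the result was not tested.

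Among the transporters the difference was largest for Slc2a6, a glucose transporter found mainly on internal membranes. Slc2a6 stood at 6.98, 5.50, 4.84 and 6.80 CPM in the 4 KRM Sham libraries and at 112, 128 and 86.1 CPM in the 3 CD11cloMϕ Sham libraries. The groups did not overlap, and the CD11cloMϕ mean was 18.02 times the KRM mean (log2 fold change -4.21, SE 0.20, adjusted p = 3.7e-06). Slc16a3, which encodes the lactate exporter MCT4, was at 32.2, 27.8, 22.4 and 25.9 CPM in KRM and 219.6, 136 and 129 CPM in CD11cloMϕ, all KRM libraries lying below all CD11cloMϕ libraries by a wide margin (log2 fold change -2.61, SE 0.22, adjusted p = 5.4e-05). The main glucose importer Slc2a1 (GLUT1) was at 36.6, 41.1, 34.9 and 40.99 CPM in KRM and 103, 91.9 and 79.8 in CD11cloMϕ, again without overlap (log2 fold change -1.28, SE 0.13, adjusted p = 1.4e-04). The high-affinity glucose transporter Slc2a3 did not pass the test, with 48.97 to 77.8 CPM in KRM and 48.6 to 83.4 CPM in CD11cloMϕ.

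All 3 hexokinases, which trap glucose by phosphorylation, were lower in KRM. Hk1, the isoform most cells use, was at 47.8, 45.7, 42.5 and 45.2 CPM in KRM Sham against 106, 132 and 112 CPM in CD11cloMϕ Sham (log2 fold change -1.39, SE 0.12, adjusted p = 5.3e-05). Hk2, an inducible isoform, was at 38.3, 36.6, 37.4 and 44.1 CPM in KRM and 70.2, 80.6 and 60.5 CPM in CD11cloMϕ (log2 fold change -0.87, SE 0.14, adjusted p = 0.0016). Hk3, a hexokinase of myeloid cells, was at 48.7, 47.9, 41.8 and 56.1 CPM in KRM and 105, 126 and 109 CPM in CD11cloMϕ (log2 fold change -1.25, SE 0.13, adjusted p = 1.5e-04). For none of the 3 genes did a KRM library reach the lowest CD11cloMϕ library, and the KRM values lay close together.

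The 5 genes of upper glycolysis were also lower in KRM, by log2 fold changes from -1.21 for the platelet-type phosphofructokinase Pfkp to -0.52 for triosephosphate isomerase Tpi1. Tpi1 was at the edge of the test (adjusted p = 0.048, 0.016 to 0.44 over 17 alternatives, of which 7 called it) and its groups overlapped. All 4 genes of lower glycolysis were lower. Phosphoglycerate mutase Pgam1 was at 103, 88.6, 99.1 and 98.1 CPM in KRM and 372, 307 and 272 CPM in CD11cloMϕ (log2 fold change -1.73, SE 0.14, adjusted p = 4.6e-05). Eno1 was at 535, 479, 484 and 469.7 CPM in KRM and 1733, 1574 and 1244 CPM in CD11cloMϕ (log2 fold change -1.65, SE 0.15, adjusted p = 9.0e-05). Both genes were higher in CD11cloMϕ by the group means, 3.26 times for Pgam1 and 3.08 times for Eno1. Gapdh, often used as a reference gene, was at 224, 176, 199.8 and 195 CPM in KRM and 385, 340.1 and 357 CPM in CD11cloMϕ (log2 fold change -0.88, SE 0.12, adjusted p = 7.3e-04), so it was not level between these populations. Pgk1, the first ATP-yielding enzyme of the pathway, had a log2 fold change of -1.51 (adjusted p = 2.7e-04).

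At the pyruvate branch Ldha, which turns pyruvate to lactate, was at 323, 272, 322 and 275 CPM in KRM Sham and 720.5, 627 and 538 CPM in CD11cloMϕ Sham, with no overlap (log2 fold change -1.10, SE 0.15, adjusted p = 7.3e-04). Pdk1, a kinase that holds pyruvate back from the mitochondria, did not pass the test at 21.1 to 23.1 CPM in KRM and 8.07 to 21.7 CPM in CD11cloMϕ. The set holds 2 of the enzymes that make or remove fructose-2,6-bisphosphate, the activator of phosphofructokinase, and both were higher in KRM. Pfkfb4 was at 239.6, 212, 200.4 and 207 CPM in KRM and 106, 89.8 and 95.5 CPM in CD11cloMϕ, 2.21 times higher in KRM by the means (log2 fold change 1.12, SE 0.12, adjusted p = 1.7e-04). Pfkfb3, named here because only 3 members were higher, was at 92.4, 94.1, 85.4 and 105 CPM in KRM and 37.2, 32.2 and 58.5 CPM in CD11cloMϕ (log2 fold change 1.13, SE 0.19, adjusted p = 0.0022). Car9, a cell-surface carbonic anhydrase, was at 13.5, 13.4, 9.62 and 9.52 CPM in KRM and 2.07, 3.13 and 3.76 CPM in CD11cloMϕ (log2 fold change 1.93, SE 0.31, adjusted p = 0.0015). For Pfkfb3, Pfkfb4 and Car9 the lowest KRM library was above the highest CD11cloMϕ library.

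Of the oxygen sensors, Hif1a was at 56.8, 93.7, 79.9 and 85.02 CPM in KRM Sham and 216, 212 and 170.2 CPM in CD11cloMϕ Sham (log2 fold change -1.36, SE 0.18, adjusted p = 6.1e-04), and Egln1, the main HIF prolyl hydroxylase, had a log2 fold change of -0.72 (adjusted p = 0.0016). Epas1 was low in both, at 1.80, 1.80, 1.65 and 0.732 CPM in KRM and 1.55, 0.464 and 3.54 CPM in CD11cloMϕ, and the groups overlapped. The mitophagy receptor Bnip3l was at 97.5, 90.3, 90.8 and 88.9 CPM in KRM and 213, 195 and 188 CPM in CD11cloMϕ (log2 fold change -1.14, SE 0.10, adjusted p = 8.1e-05), while its relative Bnip3 overlapped between the groups, at 35.6 to 55.3 and 30.4 to 47.6 CPM. Ero1l, an oxidase of protein folding, was at 29.2, 31.3, 34.2 and 35.03 CPM in KRM and 88.2, 86.8 and 70.7 CPM in CD11cloMϕ (log2 fold change -1.36, SE 0.14, adjusted p = 1.4e-04). The collagen prolyl hydroxylase genes P4ha1 and P4ha2 did not pass the test, nor did Ddit4, a stress-induced inhibitor of mTOR signalling, at 5.33 to 7.09 CPM in KRM and 3.43 to 5.33 CPM in CD11cloMϕ.

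The largest difference of all members was in Bhlhe40, a transcriptional repressor induced by hypoxia and by many other stimuli. Bhlhe40 was at 4.33, 8.04, 5.93 and 8.05 CPM in the KRM Sham libraries and 142, 289.9 and 330.0 CPM in CD11cloMϕ Sham, 38.5 times higher in CD11cloMϕ by the means (log2 fold change -5.28, SE 0.34, adjusted p = 1.3e-05). Among the other hypoxia targets called lower in KRM, Ankrd37, an early HIF target of unsettled function, came next at -2.17 (adjusted p = 0.0027). The MYC antagonist Mxi1 followed at -0.65 (adjusted p = 0.0039), both on the log2 scale. The stress gene Ndrg1 and adrenomedullin Adm, a vasodilator peptide, did not pass the test.

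**Figure D2:**
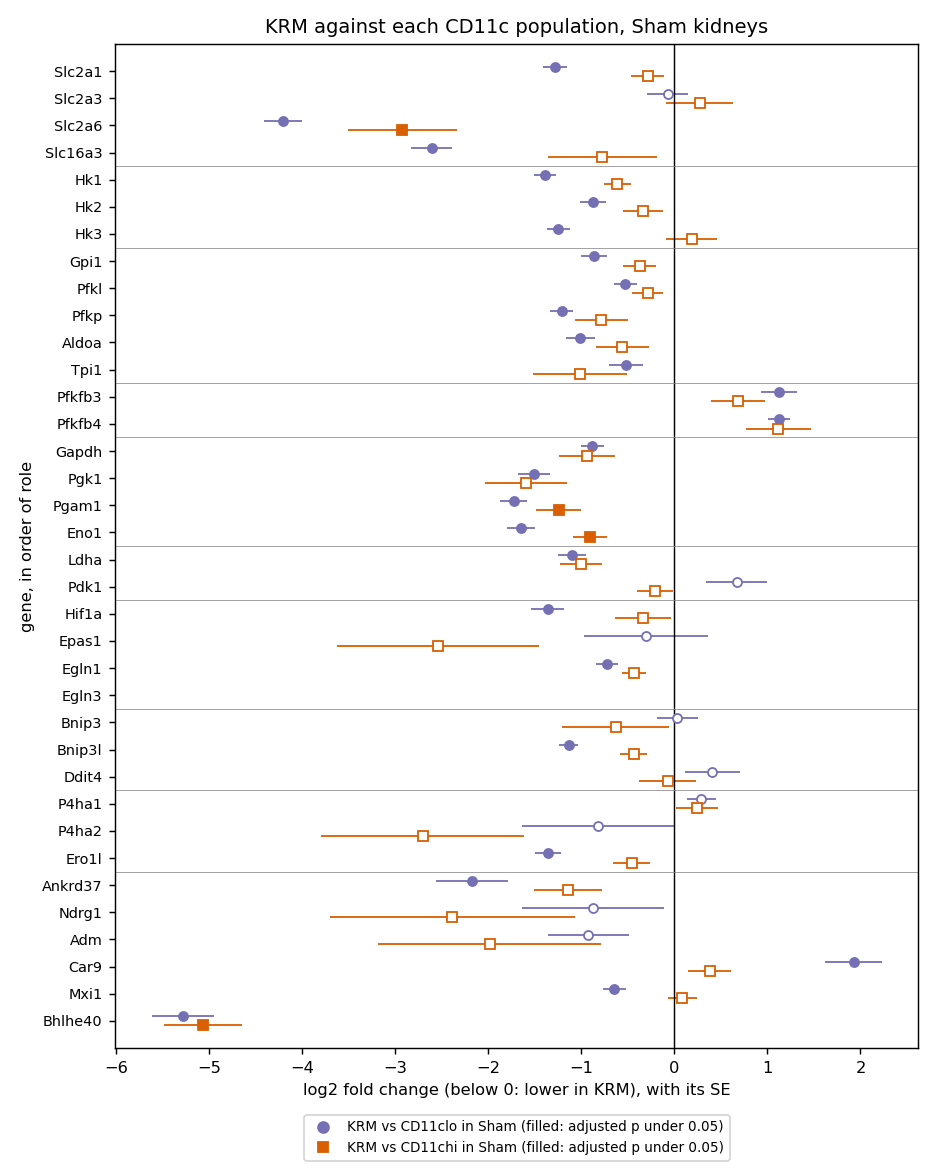
Log2 fold change of each gene (vertical axis, in order of role) in KRM against CD11cloMϕ (circles) and CD11chiMϕ (squares) of Sham kidneys, with its standard error as a bar and filled symbols for an adjusted p under 0.05. The CD11cloMϕ contrast is filled left of 0 for 23 genes and right of 0 for Pfkfb3, Pfkfb4 and Car9, while only 4 squares are filled, and the bars of the CD11chiMϕ contrast are wide for Epas1, P4ha2, Ndrg1 and Adm.

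Against CD11chiMϕ the same question gave fewer calls. Of 35 members tested, 4 were lower in KRM and none higher, where 5.13% of all 12380 genes tested were called, 1.00% higher and 4.13% lower. The median log2 fold change was -0.56 for the members and -0.07 over all genes. Bhlhe40 stood at 351, 175 and 121 CPM in the CD11chiMϕ Sham libraries, all far above the KRM values given above (log2 fold change -5.07, SE 0.42, adjusted p = 0.0031), and it was called under every alternative. Pgam1 was at 219, 155 and 286 CPM in CD11chiMϕ Sham (log2 fold change -1.25, SE 0.24, adjusted p = 0.031), and Eno1 was at 1055, 818 and 792 CPM (log2 fold change -0.90, SE 0.18, adjusted p = 0.036). Slc2a6 was at 87.2, 36.01 and 11.2 CPM (log2 fold change -2.93, SE 0.59, adjusted p = 0.035), its lowest value being that of replicate 3. No KRM library reached the lowest CD11chiMϕ library in any of these 4 genes. Markers of other cells moved with them, 4 of 6 dendritic cell, 4 of 7 monocyte and 2 of 4 neutrophil markers tested being called lower in KRM and 3 of 9 macrophage markers higher. The sums in CD11chiMϕ and KRM Sham were 342 to 1736 and 83.4 to 108 CPM for dendritic cells, 387 to 2261 and 561 to 853 CPM for monocytes and 45.9 to 192 and 90.2 to 117 CPM for neutrophils, without overlap only for the first. The part of these cells in the result was not tested.

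CD11chiMϕ Sham replicate 3, the library with 24441 CPM of proximal tubule markers, lay outside the range of the other 2 in 34 of the 36 members, above them in 12 and below in 22. Over all genes its chi-square per degree of freedom was 365 and 348 against the other 2, and 33.3 between those. The share of all genes outside the range was not counted, so the 34 are not shown to be particular to the members. Without CD11chiMϕ Sham replicate 3, 14 members were called (13.6% of all genes). Without replicate 2 there were 7 (6.95%), and without CD11chiMϕ replicate 1 there was 1 (1.39%). Leaving out KRM Sham replicate 1, 2, 3 or 4 also left 1 member, where 1.27 to 1.84% of all genes were called. Without all Sham libraries numbered 3 there were 13, 1 higher (Pfkfb4, 0.81, adjusted p = 0.025) and 12 lower in KRM, where 12.1% of all genes were called. Egln3 was among the lower, but with no count in KRM Sham it entered that fit only through the CD11chiMϕ libraries and could only come out lower, so its call adds no support. Replicate numbers were taken to pair the Sham libraries, which no label states. With the number as a block only Bhlhe40 was called (adjusted p = 0.041), where 0.719% of all genes were. Without the Sham libraries numbered 3 the log2 fold change was -0.91 for Pgk1 (adjusted p = 0.0052), -0.80 for Ldha (adjusted p = 0.011) and -1.06 for Pfkp (adjusted p = 0.0026). The genes kept as fixed examples stood in CD11chiMϕ Sham as follows. Gapdh was at 322, 236 and 528 CPM, Ldha at 511, 481 and 726 CPM and Slc2a1 at 48.5, 54.4 and 33.3 CPM. Hif1a was at 103, 133 and 54.2 CPM and Epas1 at 0.600, 2.12 and 21.7 CPM, so replicate 3 was the lowest library for Hif1a and by far the highest for Epas1. The hexokinases Hk1, Hk2 and Hk3 were at 54.7 to 76.9, 30.9 to 60.4 and 22.2 to 54.6 CPM, with replicate 3 the lowest in each.

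Between CD11chiMϕ and CD11cloMϕ of Sham kidneys none of the 36 members passed edgeR's test, where 1.52% of all 12105 genes tested were called. At an unadjusted p under 0.05 there were 11 members (17.7% of all genes), and DESeq2 called 8 (10.5% of all genes). The smallest adjusted p was 0.095, for Slc2a1 and for Hk3. Hk3 was at 54.6, 48.1 and 22.2 CPM in CD11chiMϕ and 105, 126 and 109 CPM in CD11cloMϕ, without overlap. With the replicate number as a block Hk3 was the 1 member called, where 4.92% of all genes were (log2 fold change -1.46, adjusted p = 0.047). Without the Sham libraries numbered 3, 16 members were called, 14 lower and 2 higher in CD11chiMϕ, where 15.7% of all genes were. The 2 higher were Pfkfb3 (1.03) and Car9 (1.72). In that fit Ndrg1 turned from 1.59 to -0.99 and Pgk1 from 0.16 to -0.80.

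Ndrg1, singled out after its values were seen, was higher in the Sham libraries numbered 3 than in the other Sham libraries. It was at 54.9, 71.7 and 1737 CPM in CD11chiMϕ Sham, 139, 112 and 459.6 CPM in CD11cloMϕ Sham and 57.2, 58.7, 329 and 61.6 CPM in KRM Sham. Replicate 3 was the highest library in each of the 3 groups, as it was for the proximal tubule and the distal nephron markers. In RAS libraries Ndrg1 was at 56.3 to 84.97 CPM in CD11chiMϕ, 79.9 to 129 CPM in CD11cloMϕ and 143, 408 and 332 CPM in KRM, where replicates 2 and 3 were again those with the most distal nephron markers. The part of tubular RNA in the level of Ndrg1 was not tested.

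**Figure D3:**
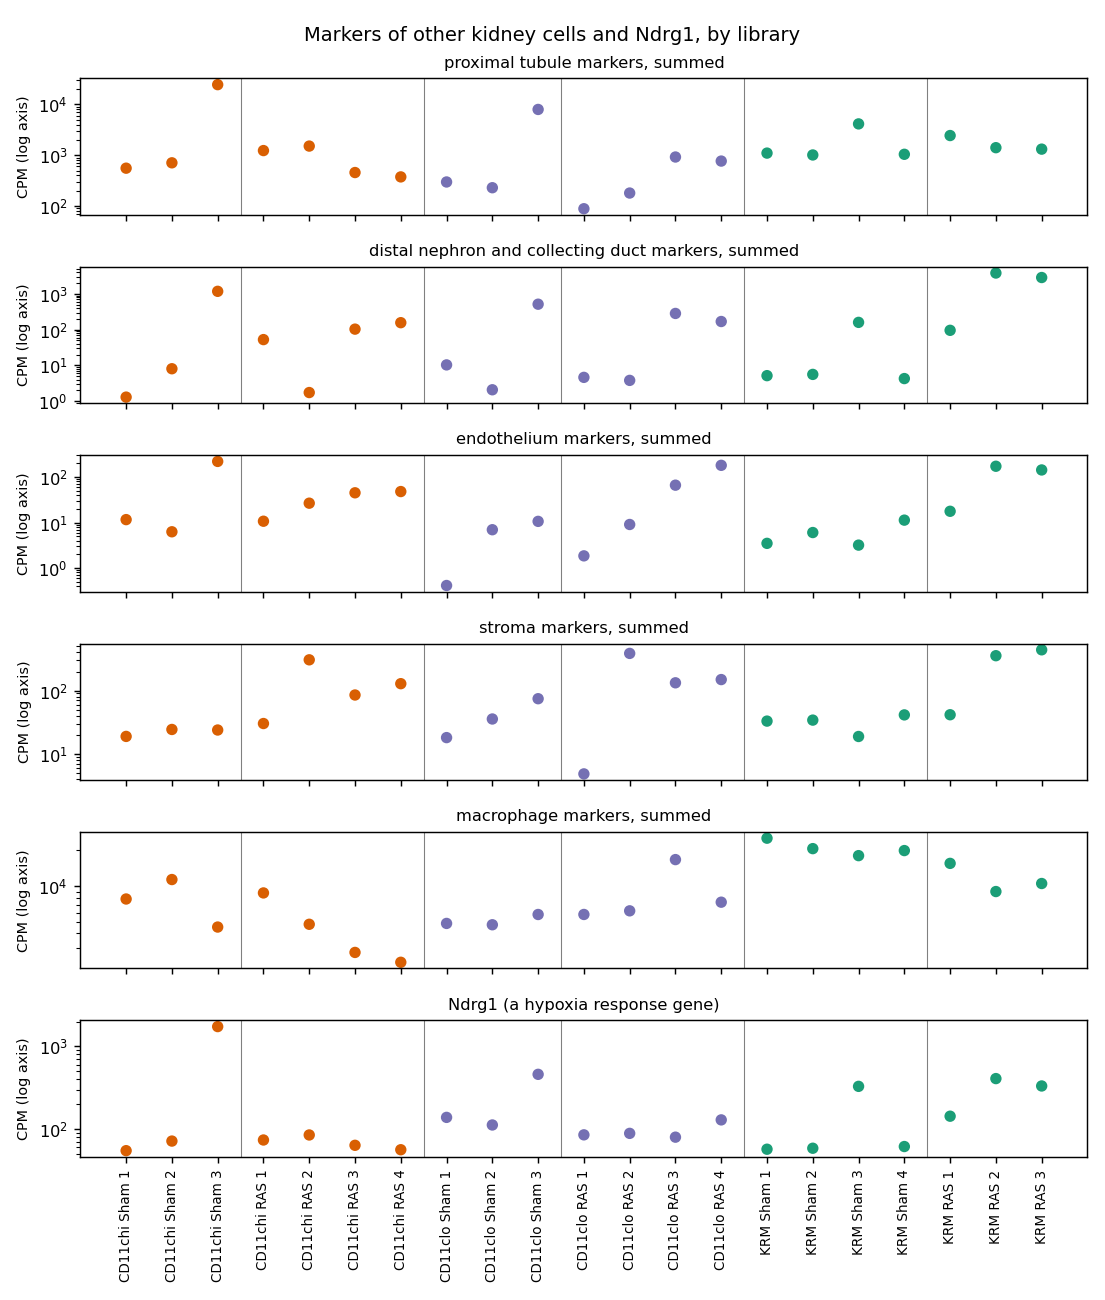
Summed CPM of marker genes of proximal tubule, distal nephron and collecting duct, endothelium, stroma and macrophages, and the CPM of Ndrg1, in each library (horizontal axis, coloured by population, logarithmic vertical axes). The Sham libraries numbered 3 are the highest of their groups for proximal tubule markers and Ndrg1, and KRM RAS replicates 2 and 3 are the highest of all 21 for distal nephron markers.

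The second question was how the narrowed artery changed these genes in each population. In KRM 6 of 36 members passed the test, 5 higher and 1 lower in RAS, where 9.70% of all 12852 genes tested were called, 7.77% higher and 1.94% lower. The median log2 fold change was 0.44 for the members, 0.44 with Egln3 set to its bound, and 0.02 over all genes. Bhlhe40 rose from the Sham values of 4.33 to 8.05 CPM to 40.7, 515 and 415 CPM in the 3 RAS libraries, all above Sham, with replicate 1 far below the other 2 (log2 fold change 5.74, SE 0.81, adjusted p = 0.016). Egln3, a HIF hydroxylase that is itself a strong HIF target, had 0 counts in the 4 Sham libraries and was at 1.08, 7.12 and 4.76 CPM in RAS (adjusted p = 0.031). It is at least 15.1-fold higher by the means if each Sham library is set to 3 counts, an upper limit for a count of 0 that covers counting error only and not the spread between libraries. Egln3 passed the count filter only through the RAS libraries, so it could only come out higher, and its call adds no support to the count, which is 4 higher and 1 lower without it. Epas1 was at 1.80, 1.80, 1.65 and 0.732 CPM in Sham and 1.28, 28.7 and 32.4 CPM in RAS, replicate 1 lying inside the Sham range (log2 fold change 3.90, SE 0.92, adjusted p = 0.041).

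In glycolysis itself 2 genes rose. Hk1 was at 60.01, 183 and 154 CPM in KRM RAS, all above the Sham values of 42.5 to 47.8 CPM (log2 fold change 1.66, SE 0.34, adjusted p = 0.031), and Pfkp was at 80.2, 121 and 115 CPM in RAS against 61.4, 59.4, 55.3 and 59.1 CPM in Sham (log2 fold change 0.96, SE 0.16, adjusted p = 0.024). Pfkfb4 fell, from 239.6, 212, 200.4 and 207 CPM in Sham to 144, 75.7 and 95.6 CPM in RAS, all RAS libraries lying below all Sham libraries (log2 fold change -0.93, SE 0.21, adjusted p = 0.039). Against CD11cloMϕ of Sham kidneys, a comparison that shares the KRM Sham libraries, the log2 fold changes of KRM were -1.39 for Hk1, -1.21 for Pfkp and 1.12 for Pfkfb4. The other hexokinases did not pass the test, Hk2 at 34.2, 24.4 and 30.4 CPM and Hk3 at 65.7, 37.2 and 57.7 CPM in RAS.

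Other members had values that differed mainly in replicates 2 and 3. Slc2a1 was at 34.2, 119.9 and 105 CPM in RAS, so replicate 1 lay below the Sham range and the others above it (log2 fold change 1.29, adjusted p = 0.066). Hif1a was at 88.3, 183 and 169 CPM in RAS (log2 fold change 1.01, adjusted p = 0.058), and Ldha at 302, 515 and 429 CPM (log2 fold change 0.59, adjusted p = 0.092). Gapdh was at 169, 240.1 and 219 CPM in RAS, where replicate 1 was below the Sham range, replicate 2 above it and replicate 3 inside it (log2 fold change 0.18, adjusted p = 0.45). Slc2a3 was at 42.03, 13.1 and 13.9 CPM against 48.97 to 77.8 CPM in Sham, and Slc16a3 at 21.3, 8.94 and 10.3 CPM against 22.4 to 32.2 CPM. The RAS libraries were thus lower than Sham for both of these transporters while 2 of the 3 were higher for Slc2a1, with adjusted p of 0.075 for Slc2a3 and 0.091 for Slc16a3.

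The number of members called depended on single libraries. KRM RAS replicate 1 lay within the KRM Sham range for 10 of 36 members, below all Sham libraries for 18 and above them for 8. After adding 1 CPM to each value it was within 2-fold of the Sham mean for all but Egln3 and Bhlhe40. Replicates 2 and 3 lay above all Sham libraries in 26 and 22 members and below them in 8 and 7. How many of all genes lay outside the Sham range was not counted. These counts are therefore not shown to be particular to the members. Without replicate 1, 24 members were called, 19 higher and 5 lower, where 50.2% of all genes were. The 5 lower were Slc2a3 (-2.12), Slc16a3 (-1.41), Pfkfb4 (-1.25), Car9 (-1.44) and Hk2 (-0.44). Among the 19 higher, Adm had a log2 fold change of 4.42, Slc2a1 of 1.63 and Pgk1 of 1.43. Without replicate 2, without replicate 3, or without KRM Sham replicate 1, 2 or 4, no member was called (0.204 to 0.338% of all genes), and without KRM Sham replicate 3 there were 7 (10.6%). With only RAS replicate 1 left 1 member was called, Bhlhe40 (2.67, adjusted p = 0.015), where 1.30% of all genes were, in a fit that takes its spread from the 4 Sham libraries and assumes that the lone RAS library varies like them.

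Replicates 2 and 3 were also the KRM libraries with the most distal nephron, stroma and endothelium marker RNA, while proximal tubule markers were highest in KRM Sham replicate 3. Markers of stroma summed to 355 and 440.1 CPM in them and of endothelium to 173 and 143, against 41.5 and 17.7 in replicate 1 and at most 41.3 and 11.3 in KRM Sham. Umod, which encodes the urinary protein uromodulin of the thick ascending limb, was at 1947 and 1449.7 CPM, against 54.6 in replicate 1. Adm, singled out after its values were seen, was at 0.0982, 24.4 and 20.05 CPM in KRM RAS and 0.837 to 1.20 CPM in KRM Sham, and was highest in the same libraries. T and NK cell markers were highest in replicate 1, at 252 CPM against 26.6 and 26.2 in the others and 2.19 to 2.65 in KRM Sham, and all 5 were called higher in RAS. None of the 5 passed the count filter between KRM Sham and CD11chiMϕ Sham or CD11cloMϕ Sham. Erythroid markers were called higher in 2 of 2 tested (83.1 to 275 CPM in RAS, 28.9 to 62.97 in Sham) and dendritic cell markers in 3 of 6, with 1 lower (109 to 167 and 83.4 to 108 CPM). B cell markers summed to 27.4 to 66.3 CPM in RAS and 83.6 to 129 CPM in Sham, with none of 3 tested called. By the study's methods the sort kept CD45+ cells and gated out, among others, cells with Ly6G, CD3 or NK1.1. The study itself reports tubule genes such as Umod in KRM of RAS kidneys. It speculates that KRM may engulf dying kidney cells, or vesicles that damaged cells release. The part of other cells, or of such uptake, in the RAS values of KRM was not tested. The 2 deposited tables also differed for the library labelled KRM RAS replicate 1. Its counts had a correlation over genes of 0.689 with the log2 column of the same name and of 0.888 with that of KRM Sham replicate 4, while the other libraries had 0.911 to 0.946 with their own log2 columns. In the log2 table Bhlhe40 stood at 5.45, 8.44 and 8.20 in the 3 KRM RAS columns and 1.82, 2.35, 2.00 and 2.39 in the 4 KRM Sham columns, and Epas1 at 3.11, 3.14 and 3.35 and 0.78, 0.74, 0.53 and 0.41. Adm was at 5.23, 5.10 and 4.78 and 1.35, 1.21, 1.12 and 1.06 there. For Epas1 and Adm the column of RAS replicate 1 was thus about as high as the other RAS columns, unlike its count. Other members differed. Aldoa was at 7.84, 9.95 and 9.73 in the KRM RAS columns and 8.62 to 8.84 in the KRM Sham columns. Hk2 was at 6.97, 3.25 and 3.28 and at 3.49 to 4.01. For Aldoa and Hk2 the column of RAS replicate 1 lay outside the range of all other KRM columns. How many members went each way was not counted. Which of the 2 columns holds the labelled library was not tested.

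**Figure D4:**
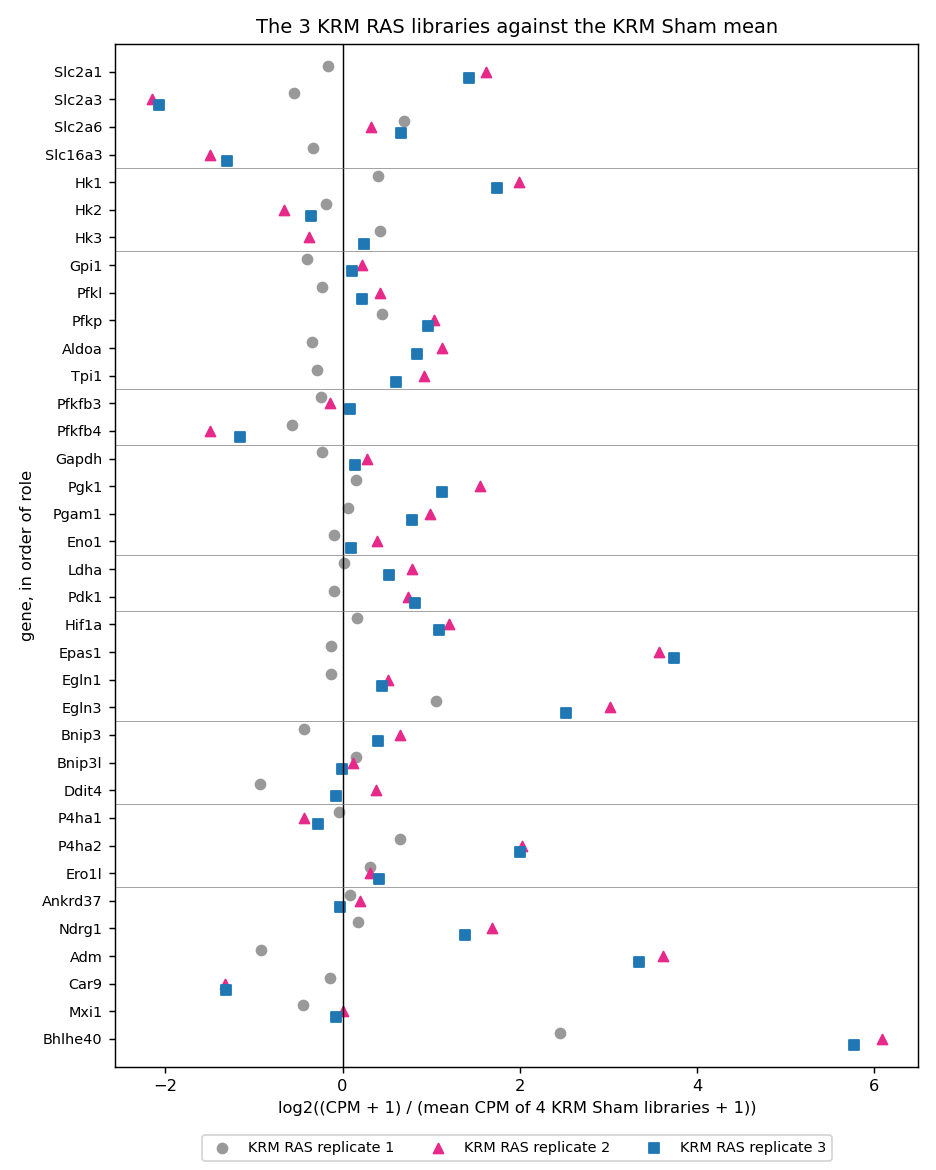
Log2 ratio of each KRM RAS library (replicate 1 grey circles, replicate 2 pink triangles, replicate 3 blue squares) to the mean of the 4 KRM Sham libraries, after adding 1 CPM to each, for the 36 genes in order of role. Replicates 2 and 3 lie side by side for most genes, right of 0 for Hk1, Epas1, Egln3, Adm and Bhlhe40 and left of 0 for Slc2a3, Slc16a3, Pfkfb4 and Car9, with replicate 1 nearer to 0.

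In CD11chiMϕ no member passed the test between RAS and Sham, nor did any of the 12739 genes tested (0% called). At an unadjusted p under 0.05 there were 6 members of 36 and 9.79% of all genes, and DESeq2 called 1 member and 1.58% of all genes. That member was Bhlhe40, at 351, 175 and 121 CPM in Sham and 215, 803, 1799.9 and 1902 CPM in RAS (log2 fold change 2.36, SE 0.76, adjusted p = 0.51 with edgeR). RAS replicate 1 fell in the Sham range and replicates 3 and 4, the libraries rich in dendritic cell markers, were highest. No member and no gene was called without Sham replicate 3. With RAS replicates 3 and 4 left out no member and no gene was called (0%), and the log2 fold change was 1.20 for Bhlhe40 (adjusted p = 1.00), 0.46 for Slc2a1 (adjusted p = 1.00) and 0.18 for Hif1a (adjusted p = 1.00, 0.85 with all libraries). Slc2a1 was at 48.5, 54.4 and 33.3 CPM in Sham and 55.9, 73.1, 165 and 199 CPM in RAS, without overlap (log2 fold change 1.35, SE 0.47, adjusted p = 0.51). Pfkp, at 50.5 to 133 CPM in Sham and 139 to 382 CPM in RAS, was the only other member without overlap. The share of all genes without overlap was not counted, so this is no result about the members. Hk2 was at 51.9, 155, 104 and 108 CPM, Hk1 at 73.7, 41.7, 99.1 and 93.98 CPM and Hk3 at 60.3, 54.7, 53.8 and 54.9 CPM in RAS. Hif1a was at 122, 103, 247 and 269 CPM, with replicates 3 and 4 the highest as for Slc2a1. Epas1 was at 1.31, 2.85, 1.30 and 3.89 CPM, Gapdh at 249, 379.7, 393 and 390.5 CPM and Ldha at 492, 686, 791 and 796 CPM, each overlapping the Sham values.

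In CD11cloMϕ no member and none of the 12301 genes tested passed edgeR's test between RAS and Sham (0% called). At an unadjusted p under 0.05 there were 4 members and 8.96% of all genes, and DESeq2 called no member and 0.883% of all genes. Tpi1, at 164 to 245 CPM in Sham and 121 to 157 CPM in RAS, was the only member without overlap (log2 fold change -0.56, SE 0.18, adjusted p = 0.55). Here too the share of all genes without overlap was not counted. The lactate exporter Slc16a3 was at 219.6, 136 and 129 CPM in Sham and 172, 345, 214 and 468 CPM in RAS, with the highest group mean of this gene, though the groups overlapped (log2 fold change 0.88, SE 0.36, adjusted p = 0.55). Egln3 was at 2.38, 0.927 and 3.32 CPM in Sham and 2.16, 7.27, 9.38 and 14.6 CPM in RAS (log2 fold change 1.88, SE 0.71, adjusted p = 0.55). Slc2a1 was at 70.02, 154, 113 and 187 CPM and Hif1a at 167, 311, 202 and 341 CPM in RAS, both overlapping Sham. The other fixed examples in CD11cloMϕ RAS were Gapdh at 226, 383, 235 and 277 CPM and Ldha at 510.2, 716, 417 and 609 CPM, each overlapping the Sham values. Epas1 was at 0.515, 3.82, 7.58 and 13.99 CPM, highest in replicates 3 and 4, which also held the most endothelial marker RNA of this group (66.3 and 181 CPM, against 1.85 and 9.06). Hk1 was at 117, 114, 87.3 and 99.4 CPM, Hk2 at 75.99, 64.2, 61.7 and 57.4 CPM and Hk3 at 78.6, 115, 141 and 157 CPM.

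**Figure D5:**
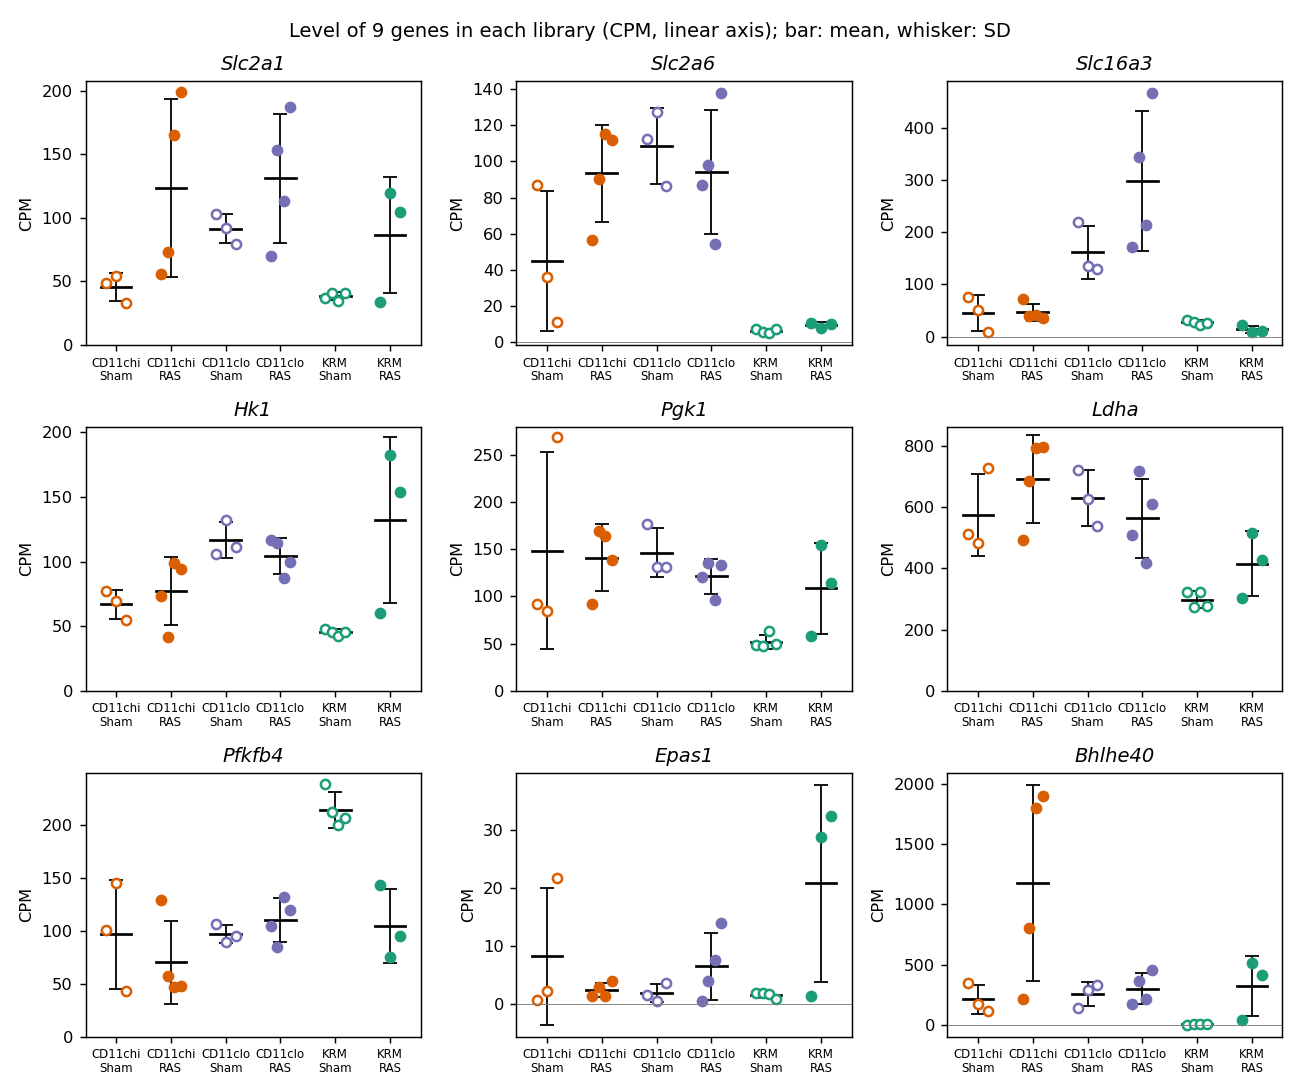
CPM (linear axes) of 9 genes in every library of the 6 groups, open circles for Sham and filled circles for RAS, with the mean as a bar and the SD as whiskers. The KRM Sham points lie below all CD11cloMϕ Sham points for Slc2a1, Slc2a6, Slc16a3, Hk1, Pgk1, Ldha and Bhlhe40 and above them for Pfkfb4, and the KRM RAS points split into replicate 1 and the other 2 for most genes.

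Whether the response to RAS differed between populations was tested as an interaction. Of 36 members, 1 passed between KRM and CD11cloMϕ, where 0.245% of all 13877 genes tested were called. Bhlhe40 rose more in KRM, by 5.42 on the log2 scale (SE 0.89, adjusted p = 0.038). This call was lost without the Sham libraries numbered 3 (adjusted p = 0.12), on leaving out any 1 library other than KRM RAS replicate 1 or CD11cloMϕ RAS replicate 1, and with the replicate block (adjusted p = 0.054), and over all alternatives the adjusted p ran from 1.4e-07 to 0.38. Between KRM and CD11chiMϕ no member and no gene was called by edgeR of 14137 tested (0%), with 12 members at an unadjusted p under 0.05 (21.2% of all genes) and 6 called by DESeq2 (8.92%). Without KRM RAS replicate 1 the counts were 12 members against CD11cloMϕ (16.1% of all genes) and 5 against CD11chiMϕ (7.40%), and both use the same KRM libraries. Against CD11chiMϕ no member was called without the Sham libraries numbered 3 (0% of all genes), without KRM RAS replicates 2 and 3 (0%) or without CD11chiMϕ RAS replicates 3 and 4 (0.00676%), and against CD11cloMϕ none was without KRM RAS replicates 2 and 3 (0.0343%). Between CD11chiMϕ and CD11cloMϕ no member was called by edgeR of 36 (0% of 13540 genes), with 4 at an unadjusted p under 0.05 (6.65% of all genes) and none by DESeq2 (0.116%).

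Genes beside the set were read from lists of the same pathways, 82 genes in all found in the counts. Between KRM and CD11cloMϕ of Sham kidneys 7 of 69 tested were higher and 21 lower in KRM, or 40.6%, against 41.9% of all genes. In 1 fit over all 6 groups the count was 18 of 79, where 23.8% of all genes were called. The pentose phosphate branch, which makes NADPH and ribose from glucose, had 6 of its 8 genes lower and 1 higher. Its first enzyme G6pdx had a mean of 122 CPM in KRM and 442 CPM in CD11cloMϕ (log2 fold change -1.88, adjusted p = 2.8e-05), and the transaldolase Taldo1 184 and 857 CPM (-2.25, adjusted p = 5.9e-05). The lists of other glycolysis isoforms, of pyruvate entry and of further hypoxia targets had 36.4 to 40.9% called, none of them above the share of all genes. Of 11 other isoforms of glycolysis tested 3 were lower and 1 higher, Pfkfb1 (2.26, adjusted p = 0.0095), while its relative Pfkfb2 was not called (-0.06, adjusted p = 0.88), with the pyruvate kinase Pkm2, the last step of the pathway, at 298 CPM in KRM and 1355 CPM in CD11cloMϕ (-2.21, adjusted p = 5.7e-05). Of 10 genes that bring pyruvate into mitochondria 4 were lower, among them the pyruvate dehydrogenase subunit Pdha1 (-1.04, adjusted p = 0.0065).

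Of 22 further hypoxia targets tested 7 were lower and 2 higher in KRM than in CD11cloMϕ. The angiogenic factor Vegfa had a mean of 3.90 CPM in KRM Sham and 99.8 CPM in CD11cloMϕ Sham (-4.59, adjusted p = 4.2e-04), and the zinc finger gene Zfp395 went the other way at 27.2 and 3.51 CPM (2.92, adjusted p = 1.5e-04). Of 7 other sugar and lactate transporters tested 2 were higher and none lower, Slc2a8 and the lactate carrier Slc16a7. Of 8 genes of the HIF system 1 was lower, the ubiquitin ligase subunit Rbx1, and of 3 gluconeogenic genes 1 was higher, Pck2, which makes phosphoenolpyruvate in mitochondria. Against CD11chiMϕ 2 of 68 of these genes were higher and 4 lower in KRM (8.82%, against 5.13% of all genes). With the share of all genes called in the same fit in parentheses, this count of 6 was 14 without CD11chiMϕ Sham replicate 3 (13.6%), 17 without all Sham libraries numbered 3 (12.1%), 15 with DESeq2 (15.5%) and 3 with limma (3.24%). It was 1 without CD11chiMϕ Sham replicate 1 (1.39%) and with the replicate block (0.719%), and 1 or 2 without any 1 KRM Sham library (1.27 to 1.84%). Between CD11chiMϕ and CD11cloMϕ none of 66 was called by edgeR, where 1.52% of all genes were, and the count was 12 of 65 without the Sham libraries numbered 3 (15.7%), 4 without CD11chiMϕ Sham replicate 3 (5.70%), 5 in 1 fit over all groups (5.64%) and 6 with DESeq2 (10.5%).

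Between RAS and Sham in KRM 4 of 72 tested pathway genes were higher and 2 lower, or 8.33%, against 9.70% of all genes. None of the 72 was called without KRM Sham replicate 1, 2 or 4 or RAS replicate 2 or 3, or with the replicate block. Without RAS replicate 1, 47 of 78 were, where 50.2% of all genes were. The count was 25 of 72 with DESeq2 (24.8%), 13 of 69 without KRM Sham replicate 3 (10.6%), 10 of 70 with limma (19.6%) and 4 of 79 in 1 fit over all groups (7.82%). Vegfa was at 11.3, 83.5 and 81.9 CPM in RAS and 2.29, 1.38, 9.12 and 2.82 CPM in Sham (3.95, adjusted p = 0.034), and Higd1a, a mitochondrial protein induced in hypoxia, at 22.7, 50.2 and 38.8 CPM in RAS and 21.3, 15.7, 17.3 and 13.1 CPM in Sham (1.26, adjusted p = 0.041). Pgam2, the muscle form of phosphoglycerate mutase, and Bpgm, which makes 2,3-bisphosphoglycerate, were the other 2 that rose, and Zfp395 (-1.07) and Sap30 (-1.17) fell. None of 69 tested was called in CD11chiMϕ and none of 67 in CD11cloMϕ by edgeR, as none of all genes was (0% in both). DESeq2 called 2 in CD11chiMϕ (1.58% of all genes) and none in CD11cloMϕ (0.883%), and edgeR called 1 in CD11chiMϕ without RAS replicate 1 (0.314%). The 12 dissociation stress genes summed to 30688 to 47349 CPM in KRM Sham and 21279.6 to 25325 CPM in KRM RAS, without overlap, with 2 of 12 called higher and 3 lower in RAS. In Sham kidneys 3 of the 12 were higher and 5 lower in KRM than in CD11cloMϕ (66.7%, against 41.9% of all genes). Against CD11chiMϕ 2 were lower and none higher in KRM (16.7%, against 5.13% of all genes). The part of the dissociation stress genes in the results of KRM was not tested.

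Several members have processed copies elsewhere in the mouse genome, among them Gapdh, Ldha, Eno1, Pgam1, Tpi1 and Pgk1. Reads shared with such copies could have been split by the authors' counting, so the levels of these genes are uncertain, more than their differences between groups counted the same way.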

How the data were processed

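RNA-seq of 21 libraries of sorted kidney macrophages was analysed in 6 groups taken from the sample labels. Reads were aligned by the authors with OSA to mouse build mm10 with Ensembl R83 genes, and the authors deposited estimated counts per gene line, which are not all whole numbers and were rounded here. A 2nd deposited table holds log2 values that the authors made from TPM plus 1 with quantile normalisation, used here as an alternative. Lines that share a symbol were summed, giving 34236 symbols from 37620 lines, and 0 sample columns were left unmapped. Totals were 6891142 to 18592381 counts per library, and the counting error they allow does not cover variation between mice. Members were found by symbol. The members and gene lists were chosen with earlier results of these data known.

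Genes were kept by filterByExpr (minimum count 10, minimum total 15) and tested with edgeR 4.0.16 (TMM, quasi-likelihood F test, two-sided) in R 4.3.3 with Benjamini-Hochberg adjustment over all genes tested, a call being an adjusted p under 0.05. Fits used only the groups compared. Alternatives were other size factors, no scaling factor, other filters, 1 fit over all 6 groups, DESeq2 1.42.0, duplicate lines kept apart, a fold above 2, the replicate number as a block, each library left out in turn, and all Sham libraries numbered 3 left out. limma 3.58.1 on the log2 table (mean of at least 1) and leaving out KRM RAS replicates 2 and 3, or CD11chiMϕ RAS replicates 3 and 4, together were chosen after seeing the data. The tests were checked on simulated counts with known changes for 2 comparisons. For RAS against Sham in KRM, 15% of 2-fold and 64% of 4-fold changes were called. Between KRM and CD11cloMϕ of Sham kidneys these shares were 24% and 70.1%. Of unchanged genes 0.03% and 0.0491% were called. Many changes of 2-fold would thus be missed, and a member that was not called is not shown to be unchanged. The other comparisons were not simulated. Deviations from group means of same-numbered Sham libraries had correlations of 0.201 to 0.647 between populations, so replicate numbers were taken to pair the Sham libraries, on the data and not on a label. The highest, 0.542 to 0.647, were those of the libraries numbered 3, which shared high tubule marker RNA. Same-numbered RAS libraries had 0.0535 to 0.505 between populations, and libraries of different numbers were not compared. The pairing is thus uncertain, and the main fits use no block. Values in every library are given for up to 8 called members with the smallest adjusted p in a comparison and always for Hif1a, Epas1, Gapdh, Ldha, Slc2a1, Hk1, Hk2 and Hk3. Further members were named after their values were seen. Promoter sequences came from RefSeq on GRCm38.p6.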

Additional observations from a re-analysis of the deposited data

Results flagged for a closer look

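In the 3 groups of 4 libraries, 9 of 108 gene and group combinations had 1 library far from the other 3 by Dixon's gap test, where chance gives about 1 in 20. CD11chiMϕ RAS replicate 1 was the highest for Slc16a3 (71.2 CPM, others 35.2 to 40.8), Hk3 (60.3 CPM, others 53.8 to 54.9) and Pfkfb4 (129 CPM, others 47.1 to 57.5) and the lowest for Gapdh (249 CPM, others 379.7 to 393). KRM Sham replicate 3 was the highest for Pgk1 (63 CPM, others 46.98 to 49.04), P4ha2 (2.89 CPM, others 0.635 to 0.842) and Ndrg1 (329 CPM, others 57.2 to 61.6), and it also held the most proximal tubule marker RNA of its group, 4129.9 CPM. The part of that RNA in these values was not tested. Pfkl was low in CD11cloMϕ RAS replicate 3 (49.3 CPM, others 77.8 to 82.8), and Epas1 was low in KRM Sham replicate 4 (0.732 CPM, others 1.65 to 1.80).

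The response of Bhlhe40 to RAS was larger in KRM than in CD11cloMϕ by 5.42 on the log2 scale (interaction term, edgeR, adjusted p = 0.038). The call was lost without the Sham libraries numbered 3 (adjusted p = 0.12), with the replicate block (adjusted p = 0.054) and on leaving out any 1 library other than KRM RAS replicate 1 or CD11cloMϕ RAS replicate 1.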

How the results depend on the processing

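Of the alternatives to the members' results, 5809 kept direction and side of the threshold, 150 passed it newly and 95 no longer passed it, in the same direction. A further 306 changed sign, 302 of them with no call in either fit and 4 with one. Percentages in parentheses are the share of all genes called. The count of called members between KRM and CD11cloMϕ of Sham kidneys was 25 to 27 with any 1 library left out and within 1.5 times of 26 in every alternative. Between KRM and CD11chiMϕ (4 called) it was 1 with the replicate block (0.719%), 11 with DESeq2 (15.5%), 13 without the Sham libraries numbered 3 (12.1%), 2 with limma (3.24%) and 1 to 14 with 1 library left out. Between CD11chiMϕ and CD11cloMϕ (0 called by edgeR) it was 5 in 1 fit over all groups (5.64%), 1 with the block (4.92%), 8 with DESeq2 (10.5%), 16 without the Sham libraries numbered 3 (15.7%) and 0 to 1 with 1 library left out. For RAS in KRM (6 called) it was 3 in 1 fit (7.82%), 0 with the block (0.327%), 17 with DESeq2 (24.8%), 11 with limma (19.6%), 1 without RAS replicates 2 and 3 (1.30%), and 0 to 24 with 1 library left out, 24 being without RAS replicate 1 (50.2%). For RAS in CD11chiMϕ it was 1 with DESeq2 (1.58%) and 0 to 0 with 1 library left out, in CD11cloMϕ it was 0 under each alternative, and the response difference of CD11chiMϕ and CD11cloMϕ gave 0 under each alternative. The response difference of KRM and CD11chiMϕ gave 1 in 1 fit (0.110%), 6 with DESeq2 (8.92%), 1 with limma (0.661%) and 0 to 5 with 1 library left out, and that of KRM and CD11cloMϕ gave 0 with the block (0.0144%), 11 with DESeq2 (10.4%), 0 without the Sham libraries numbered 3 (0%), 9 with limma (10.9%), 0 without KRM RAS replicates 2 and 3 (0.0343%), and 0 to 12 with 1 library left out. The signs that changed where a call was involved were those of Pgk1 (-0.80) and Ndrg1 (-0.99) between CD11chiMϕ and CD11cloMϕ without the Sham libraries numbered 3, and in KRM of Pfkfb3 with limma (-1.03) and Epas1 without RAS replicates 2 and 3 (-0.19). For these changes the cause was not tested. RAS and Sham libraries share only a number (correlations of -0.196 to 0.325), so the block there is no paired test.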
